A study of Mus musculus with 61 samples.

Results

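The genes described here encode the machinery of regulated exocytosis, the release of stored vesicles when calcium rises in a cell. They were the 47 listed synaptotagmin, SNARE, Rab3 and Rab27, Rim, Munc13, complexin and related genes, chosen by name. All 47 had a row among the 46078 genes counted, and 46 of them passed the limits on low values and were among the 24004 genes fitted and tested. Doc2a was the member left out for low counts, at 0.081 to 0.181 CPM (counts scaled to a library total of 1000000) in 4 samples and 0 in the others.

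The cells came from ductal organoids of C57BL/6 mice, which are cultures of pancreatic duct cells grown in a gel. Separate lentiviral vectors carried doxycycline-inducible GFP-Ngn3, LSSOrange-Pdx1 and tdTomato-MafA, and transgenes had been induced for 8 days in all groups. Pools of 50 cells were sorted by colour into cells with Pdx1, with MafA, with both, or with each of these beside Ngn3. Every combination was taken from WT cultures, which received wild-type Ngn3, and from 6SA cultures, which received the phospho-mutant 6SANgn3. Cells sorted without the Ngn3 colour from either kind of culture were the reference, and they had been through the same infection and induction. Uninfected cells and cells with Ngn3 alone were not analysed here. The colours do not fix how much of each factor a cell made, and a pool can hold cells that responded differently. Of the 61 libraries, 58 passed quality limits and were summed into 32 samples, 17 with Ngn3 and 15 without. Each of the 12 conditions had 2 or 3 samples, of which replicates 1 and 2 were organoids of passage 2 and replicate 3 of passage 5.

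In endocrine cells and neurons, a granule or synaptic vesicle is brought to the plasma membrane by Rab3 or Rab27 GTPases and the effectors that bind them. Priming factors of the Munc13 and CAPS families then allow the vesicle SNARE (VAMP, or synaptobrevin) to zip with the syntaxin and SNAP25 SNAREs of the plasma membrane, while complexins hold the assembled complex ready. Synaptotagmins and Doc2 proteins bind calcium or membrane lipids and trigger fusion. Duct epithelium also delivers vesicles to its surface, with more widely used relatives such as SNAP23, VAMP3 and VAMP8.

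Stretches of promoter are shown for members whose annotated start region holds an E-box, since Ngn3 is a basic helix-loop-helix protein and this class of factors binds E-boxes (CANNTG). The letters CAGCTG and CAGATG were searched on both strands from 250 bases before to 50 bases after each start in RefSeq sequences of GRCm38.p6. Of the 47 members, 33 had an entry, with 37 promoters. CAGCTG was present in 14 of the 37 member promoters (37.8%) and in 16.3% of all 32851 promoters. CAGATG was present in 3 member promoters (8.11%) and in 17.2% of all. Both are read without any test, and a match is not a binding site. The capitals mark the match, and each stretch is written from 5′ to 3′ on the strand of its gene.
Rph3al: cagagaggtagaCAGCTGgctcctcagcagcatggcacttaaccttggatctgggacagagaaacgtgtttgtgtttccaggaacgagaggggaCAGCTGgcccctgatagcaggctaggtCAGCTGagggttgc
Cplx2: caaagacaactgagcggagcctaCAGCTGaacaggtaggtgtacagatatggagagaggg
Cplx1: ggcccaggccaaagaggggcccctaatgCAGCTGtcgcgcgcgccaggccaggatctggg
Rab3c: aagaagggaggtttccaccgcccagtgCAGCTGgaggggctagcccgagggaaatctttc
Stx1a: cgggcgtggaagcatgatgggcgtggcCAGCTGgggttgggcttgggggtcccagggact
Rims3: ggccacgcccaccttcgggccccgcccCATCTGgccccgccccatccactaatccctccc

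All 6 stretches lie before a start annotated in RefSeq and overlap no exon of their own gene in the GENCODE annotation used for lengths. RefSeq and GENCODE do not place all of these starts alike: the Rph3al and Rab3c stretches lie inside the GENCODE span of the gene, and the Cplx2 stretch lies far upstream of it. The Rph3al stretch (chr11:75925952-75926086, minus strand) begins 195 bases before the start and holds 3 copies of CAGCTG, and Rph3al is a Rab effector of secretory granules. The stretches of the complexin genes Cplx2 (chr13:54302371-54302430, plus strand) and Cplx1 (chr5:108550078-108550137, minus strand) begin 185 and 110 bases before it. The Rab3c stretch (chr13:110280282-110280341, minus strand) begins 135 bases before its start, and that of the syntaxin gene Stx1a (chr5:135023422-135023481, plus strand) begins 60 bases before its start. These 5 genes were all higher with Ngn3 in the values given further on. Rims3 (chr4:120854714-120854773, plus strand, beginning 85 bases before the start) is shown as an example of CAGATG, printed as CATCTG because the match is on the opposite strand, and its level did not pass the test. Both motifs were found among members called and not called: CAGATG was also present at Cadps, which was higher, and CAGCTG at Stx4a, Syt1, Syt16 and Unc13c, which were not called over all combinations. Of the 18 members higher with Ngn3 that had an entry, 10 held CAGCTG and 1, Cadps, held CAGATG. Which of these motifs Ngn3 binds in these cells was not tested. The letters TTCAGCACC, the first part of the RE1 element recognised by the neuronal gene repressor REST, were present in 1 member promoter, that of Unc13a, and in 0.371% of all.

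Gene counts summed to 2579583 to 19461008 per sample (median 8490758.5), so that 3 counts stood for 0.136 to 1.01 CPM. As a check of the sort, Neurog3, which encodes Ngn3, was at 7.87 to 329 CPM in the 17 samples with Ngn3 and at 0 to 0.788 CPM in the 15 without. Mafa reads were few and did not separate the sorted groups in every sample. Mafa was at 0.107 to 3.16 CPM in the 5 samples with MafA alone, 0 to 4.21 CPM in the 6 with Pdx1 and MafA, 0.306 to 7.79 CPM in the 6 with Ngn3 and MafA and 3.46 to 12.7 CPM in the 5 with all 3 factors, against at most 0.116 CPM in samples sorted without MafA. Pdx1, which duct cells also express, overlapped too, at 11.2 to 37.7 CPM in the 4 samples with Pdx1 alone and 4.22 to 19.3 CPM in the 5 with MafA alone. A pair of samples stood apart. Replicate 3 of the 6SA MafA cells had a TMM scaling factor of 0.697 (0.886 to 1.18 in the others), and replicate 1 of the WT cells with Ngn3 and MafA held 296 CPM of summed mesenchyme markers (at most 19.1 in the others). Counts without both samples are given beside the results.

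Across all combinations, cells with Ngn3 had higher transcript levels of a large part of the release machinery. Of the 46 members tested, 26 were higher and 2 lower with Ngn3 (edgeR quasi-likelihood test, Benjamini-Hochberg adjusted p under 0.05), where 11.1% of all genes tested were higher and 10.5% were lower. The median log2 fold change of the members was 1.99, or 1.92 with genes absent from the reference set at their lower bound, and that of all genes was 0.072. By role, 7 of 13 calcium sensors, 4 of 10 SNAREs and partners, 5 of 6 Rabs, 5 of 8 Rab effectors, 2 of 6 priming factors and 3 of 3 complexins were higher, and the 2 lower members were Snap23 and Rab27b. In 6 members every sample with Ngn3 was above every sample without it, which held for 0.542% of all genes, and in 0 members every sample was below, which held for 0.15% of all genes. The 46 members tested included 6 (Syt4, Syt9, Syt16, Rims1, Cplx1 and Cplx3) that reached the detection limit only through libraries with Ngn3, and 2 of these, Cplx1 and Cplx3, were among the 26. The other 4 of these had conditions at 0 on both sides, for which the contrast gives no usable test, and they are counted as not called. The same held for 3 members beside Pdx1 and 1 beside MafA in the comparisons further on. Without the 2 samples that stood apart, 23 were higher and 3 lower, and Cplx1, Cplx3 and Sytl1 no longer passed.

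A pool gives 1 value for 50 cells, so a larger share of responding cells and more RNA per responding cell cannot be told apart in any result here. The scale of the comparison also matters for the small changes. With RLE size factors the numbers of all genes higher and lower were 3009 and 2191, with library totals 3623 and 1674, and with TMM 2658 and 2510, and the median of all genes was 0.147, 0.277 and 0.072. The members gave 27 higher and 2 lower with RLE and 27 and 1 with totals. Genes of other cell types moved in the same comparison. All 10 pan-endocrine markers were higher (summed level 472 to 14265 CPM with Ngn3, 1.32 to 10.6 without), 8 of 9 tested neuron markers were higher (57.4 to 1639 against 3.16 to 81.6 CPM, with Slc17a6 at 0 in every sample), and 7 of 10 duct markers were lower (1575 to 18414 against 14680 to 61100 CPM). The summed acinar markers were at 0.130 to 19.7 CPM with Ngn3 and 0.617 to 13.0 without, and Pnlip and Ptf1a were at 0. The part of these shifts in the members' changes was not tested.

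**Figure D1:**
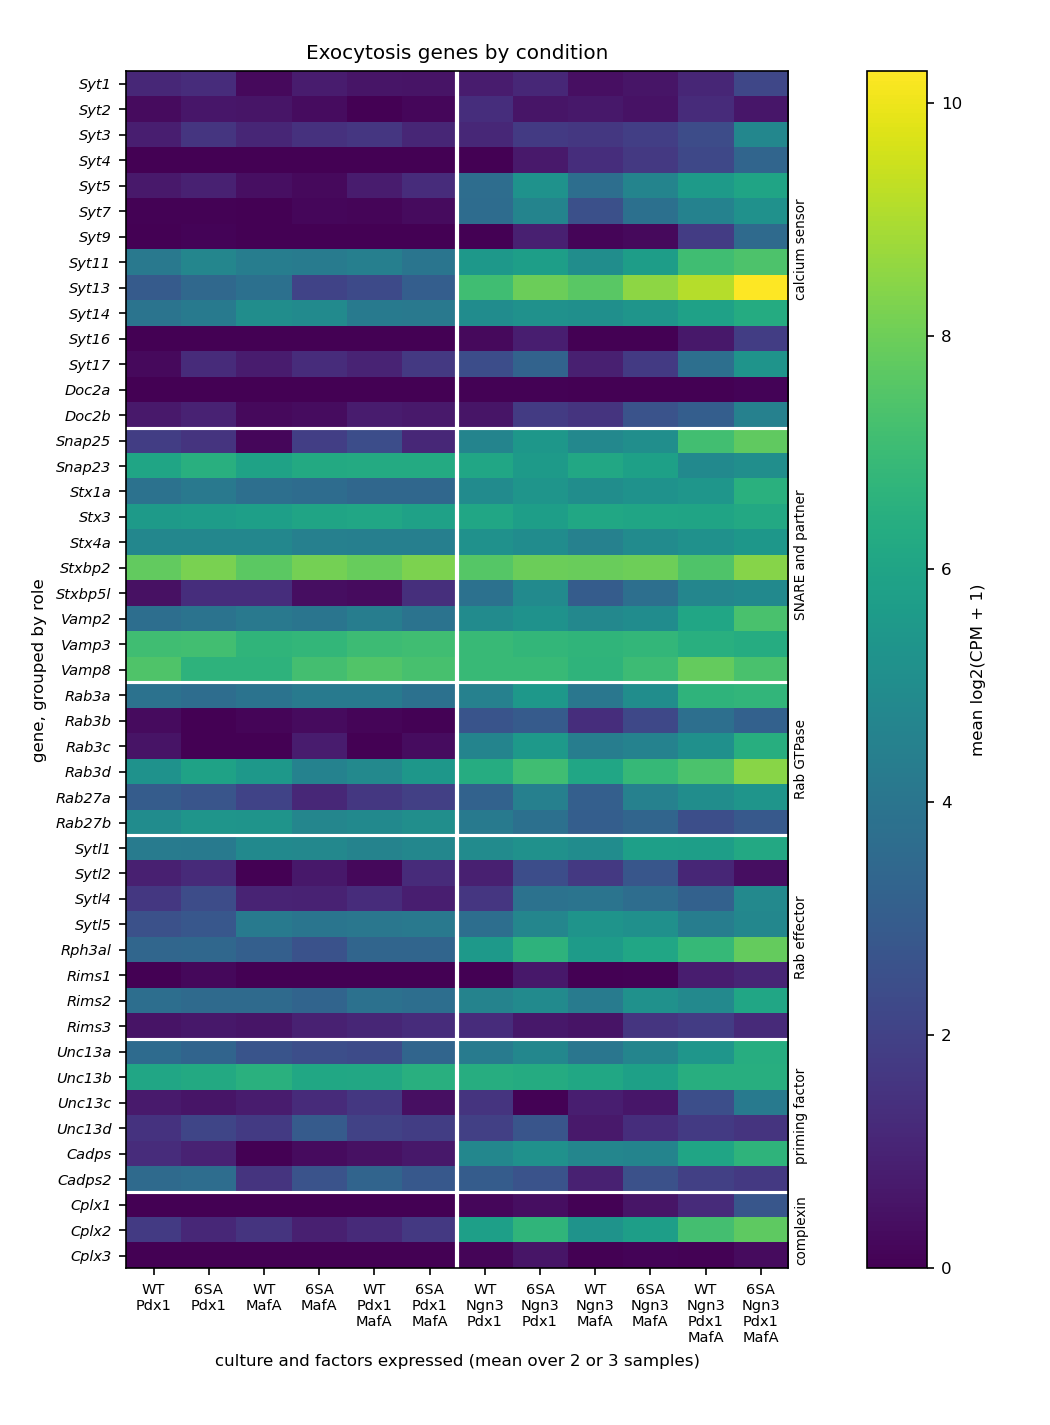
Mean log2(CPM + 1) of the 47 genes (rows, ordered by role) in the 12 conditions (columns, WT and 6SA cultures). The 26 genes called higher with Ngn3 mostly have higher values in the 6 columns with Ngn3. Single conditions overlap. Mean Sytl5 is 12.9 CPM in WT cells with Ngn3 and Pdx1 and 17.9 CPM in WT cells with MafA alone. Genes such as Vamp8, Stxbp2, Vamp3 and Unc13b are about even across the columns.

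Among the calcium sensors, Syt7 and Syt13 separated the samples completely. Syt7, a high-affinity calcium sensor of hormone granules, was at 1.97, 15.4 and 56.2 CPM (lowest, median and highest) with Ngn3 and at 0, 0 and 0.486 CPM without. All 17 samples with Ngn3 were above all 15 without, a log2 fold change of 7.70 (SE 0.71, edgeR adjusted p 7.22e-09). Syt13, a synaptotagmin that lacks the residues for calcium binding and is known from endocrine precursors, was at 44.9, 314 and 1508 CPM with Ngn3 and at 0, 10.8 and 30.9 CPM without (log2 fold change 5.34, SE 0.68, edgeR adjusted p 1.17e-06). Its samples did not overlap either.

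Syt5, found on dense-core vesicles, was at 2.42, 34.1 and 101 CPM with Ngn3 and 0, 0.749 and 4.001 CPM without (log2 fold change 5.52, SE 0.68, edgeR adjusted p 6.84e-07). In 14 of the 17 samples with Ngn3 it was above every sample without. Syt11 and Syt14, which do not act as calcium triggers, changed less: Syt11 was at 15.9, 60.9 and 242 against 8.15, 17.5 and 35.7 CPM (log2 1.96, SE 0.33, edgeR adjusted p 6.02e-05), and Syt14 at 19.9, 38.3 and 142 against 10.6, 18.9 and 53.7 CPM (log2 1.14, SE 0.22, edgeR adjusted p 0.000266). Both ranges overlapped, with 12 and 4 of the 17 samples with Ngn3 above all without. Syt17, a synaptotagmin-like C2 protein, and Doc2b, a high-affinity calcium sensor of insulin secretion, were higher by log2 2.73 (SE 0.55, edgeR adjusted p 0.000438) and 3.19 (SE 0.77, edgeR adjusted p 0.00296), from medians of 1.05 and 0.589 CPM to 5.45 and 2.26 CPM.

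Syt1 and Syt2, fast calcium triggers of neuronal synapses, stayed low. Syt1 was at 0, 1.28 and 4.48 CPM with Ngn3 against 0, 0.602 and 2.18 CPM without, and Syt2 at 0, 0.611 and 3.61 against 0, 0 and 1.18 CPM. Syt1, Syt2 and Syt3 had log2 fold changes of 0.78, 2.15 and 1.38 with edgeR adjusted p of 0.585, 0.114 and 0.201. Syt3 was not low in every sample. With all 3 factors it was at 14.5 and 46.9 CPM in 6SA and 0 to 13.6 CPM in WT samples, against 0 to 11.1 CPM without Ngn3. Syt4, Syt9 and Syt16 had no usable test over all combinations, and only their counts are given. Syt4 had 694 counts summed over the samples with Ngn3 and 1 without, a depth-scaled ratio of 560 (95% exact counting interval 100 to 22150). Syt9 had 522 and 3 counts (ratio 140, interval 47.8 to 683), and Syt16 was at least 1.71-fold higher against 3 counts per sample without Ngn3.

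Among the SNAREs and their partners, Snap25, Vamp2, Stx1a and Stxbp5l were higher with Ngn3 and Snap23 was lower. Snap25, the plasma membrane SNARE of neurons and endocrine cells, was at 2.95, 73.3 and 289 CPM with Ngn3 and at 0, 2.24 and 9.03 CPM without (log2 fold change 5.76, SE 0.62, edgeR adjusted p 7.03e-08). In 15 of the 17 samples with Ngn3 it was above every sample without, and the other 2 were of passage 5. Vamp2, the vesicle SNARE of synaptic vesicles and insulin granules, was at 19.2, 34.5 and 186 CPM with Ngn3 against 9.95, 13.6 and 32.03 CPM without (log2 1.62, SE 0.19, edgeR adjusted p 2.21e-07). Stx1a, the syntaxin partner of Snap25, was at 7.34, 51.2 and 125.5 against 4.53, 10.7 and 24.4 CPM (log2 2.02, SE 0.40, edgeR adjusted p 0.000397). Stxbp5l, a tomosyn that holds syntaxin and restrains fusion, was at 1.97, 22.5 and 51.3 against 0, 0.788 and 3.61 CPM (log2 4.56, SE 0.60, edgeR adjusted p 2e-06). Vamp2 was above every sample without Ngn3 in 11, Stx1a in 12 and Stxbp5l in 14 of the 17 samples.

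Snap23, the epithelial relative of Snap25, was lower: 14.3, 49.9 and 95.6 CPM with Ngn3 against 49.8, 71.7 and 100 CPM without. Its log2 fold change was -0.57 (SE 0.18, edgeR adjusted p 0.0203), 8 of the 17 samples were below every sample without Ngn3, and with library totals it was -0.36 with edgeR adjusted p 0.196. The other 5 members of this role did not pass: Vamp3 (log2 -0.31, edgeR adjusted p 0.0679) and Vamp8 (0.01, adjusted p 1), both endosomal VAMPs, the syntaxins Stx4a (0.53, adjusted p 0.0952) and Stx3 (0.17, adjusted p 0.828), and the Munc18 protein Stxbp2 (-0.11, adjusted p 0.955). Stxbp2 ranged from 115 to 408 CPM with Ngn3 and from 134 to 419.5 CPM without.

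Of the Rab GTPases of secretory vesicles, 5 of 6 were higher and the sixth was lower. Rab3c, a Rab3 of neurons and endocrine cells, was at 4.13, 41.0 and 101.5 CPM with Ngn3 and at 0, 0 and 4.05 CPM without (log2 8.47, SE 0.84, edgeR adjusted p 4.8e-08). Rab3b was at 1.21, 3.82 and 18.4 against 0, 0 and 0.807 CPM (log2 5.90, SE 0.69, edgeR adjusted p 4.1e-07). Both genes separated the samples completely, although the lowest Rab3c sample with Ngn3 and the highest without differed by little. Rab3a, the Rab3 of synaptic vesicles and insulin granules, was at 11.3, 39.9 and 189 against 9.11, 15.5 and 22.9 CPM (log2 1.64, SE 0.26, edgeR adjusted p 2.39e-05), above every sample without in 12 of 17. Rab27a, which docks insulin granules, and Rab3d, a Rab of exocrine granules, were higher by log2 2.65 (SE 0.49, edgeR adjusted p 0.000168) and 1.95 (SE 0.38, edgeR adjusted p 0.000369).

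Rab27b, the close relative of Rab27a, went the other way. It was at 2.66, 8.86 and 34.8 CPM with Ngn3 and at 15.8, 32.9 and 64.4 CPM without (log2 -1.85, SE 0.27, edgeR adjusted p 7.21e-06). In 14 of the 17 samples with Ngn3 it was below the lowest sample without, and the highest of them, replicate 2 of the 6SA cells with Ngn3 and Pdx1 at 34.8 CPM, lay in the middle of the reference range.

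Of the effectors that tie Rabs to granules, 5 of 8 were higher. Rph3al (Noc2), a Rab3 and Rab27 effector needed for regulated secretion in endocrine cells, was at 12.1, 83.6 and 298 CPM with Ngn3 against 2.11, 9.06 and 14.04 CPM without (log2 3.60, SE 0.41, edgeR adjusted p 2e-07). In 16 of the 17 samples it was above every sample without. Sytl4 (granuphilin), a Rab27 effector on insulin granules, was at 0.820, 15.7 and 42.4 against 0, 1.61 and 7.504 CPM (log2 2.70, SE 0.52, edgeR adjusted p 0.000296). Rims2, the active zone protein of beta cells that binds Rab3, was at 12.1, 30.97 and 75.6 against 2.37, 12.03 and 19.6 CPM (log2 1.46, SE 0.27, edgeR adjusted p 0.000216). Sytl4 was above every sample without Ngn3 in 9 and Rims2 in 12 of the 17 samples. Sytl5 (log2 1.29, edgeR adjusted p 0.00207) and Sytl1 (0.88, edgeR adjusted p 0.0485) were also higher, while Sytl2 (2.26, adjusted p 0.0796) and Rims3 (0.59, adjusted p 0.808) did not pass.

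Of the priming factors, Cadps (CAPS1), which primes dense-core granules, was at 4.28, 51.0 and 153 CPM with Ngn3 and at 0, 0.271 and 3.91 CPM without. All samples with Ngn3 were higher (log2 6.98, SE 0.73, edgeR adjusted p 5.78e-08). Unc13a (Munc13-1) was at 7.11, 23.2 and 104 against 0.349, 10.3 and 19.7 CPM (log2 1.88, SE 0.42, edgeR adjusted p 0.00143), above every sample without in 11 of 17. Unc13b, the Munc13 with broad expression, was at 47.1, 76.2 and 128 against 48.8, 78.3 and 103 CPM, with a log2 fold change of 0.00 (SE 0.14, edgeR adjusted p 1). Cadps2 (CAPS2) was at 0.130, 3.59 and 12.1 against 0.617, 7.93 and 15.4 CPM (log2 -0.94, SE 0.39, edgeR adjusted p 0.0888). Unc13c and Unc13d did not pass either (log2 0.71 and -0.62, edgeR adjusted p 0.706 and 0.583).

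All 3 complexins were called higher, from very different levels, although Cplx1 and Cplx3 reached the detection limit only through libraries with Ngn3, so their calls are a description. Cplx2, the complexin of endocrine cells, was at 11.2, 83.0 and 255 CPM with Ngn3 and at 0, 1.23 and 6.48 CPM without, with no overlap (log2 5.56, SE 0.58, edgeR adjusted p 4.51e-08). Cplx1, the main neuronal form, was at 0, 0.161 and 7.55 against 0, 0 and 0.0576 CPM (edgeR adjusted p 0.00125), and its 261 counts against 1 gave a ratio of 211 (95% exact counting interval 37.5 to 8351). Cplx3 had 26 counts in all with Ngn3, at most 1.91 CPM in a sample, and none without (edgeR adjusted p 0.0308), both levels being at or under what 3 counts per sample can show, so no fold is given. It did not pass when any replicate number was left out.

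**Figure D2:**
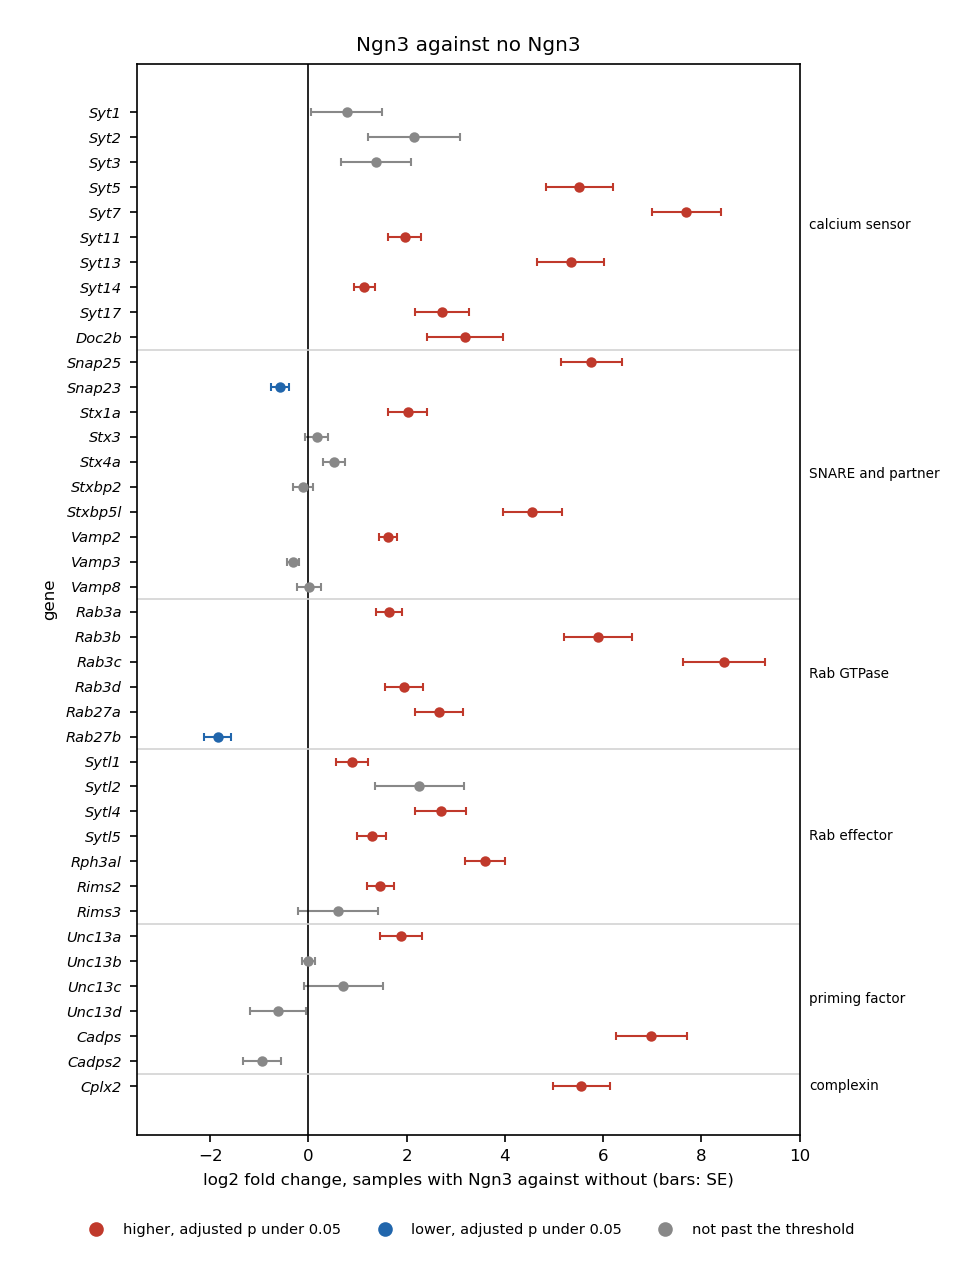
Log2 fold change with Ngn3 against without (points, bars are ± SE of the edgeR fit) for 40 members grouped by role; red marks higher and blue lower at an adjusted p under 0.05, and grey marks members that did not pass. Rab3c at 8.47 and Syt7 at 7.70 lie farthest right, and Rab27b at -1.85 farthest left.

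Dividing CPM by exon length put related genes on one scale. In the summed level of Snap25 and Snap23 per kb, Snap25 made up 0, 1.73 and 6.27% (lowest, median and highest) in the samples without Ngn3 and 2.49, 41.6 and 92.7% with it. In the 5 samples with all 3 factors its share was 39.9 to 92.7% (median 79.1%), lowest in replicate 3 of the WT culture. Vamp2 stayed below the sum of its relatives in every sample. Its share of Vamp2, Vamp3 and Vamp8 per kb was 1.76, 3.43 and 6.41% without Ngn3 and 4.47, 9.93 and 43.6% with it, and in cells with all 3 factors the median was 14.3%. Cadps made up 0, 2.12 and 17.4% of Cadps and Cadps2 without Ngn3 and 33.1, 89.8 and 99.6% with it, ranges that did not overlap. Rab27b fell from a median of 15.8% of the 6 Rabs (5.95 to 27.6%) to 1.31% (0.205 to 8.02%), while Rab3c went from a median of 0% (at most 2.02%) to 4.70% (1.58 to 9.52%).

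**Figure D3:**
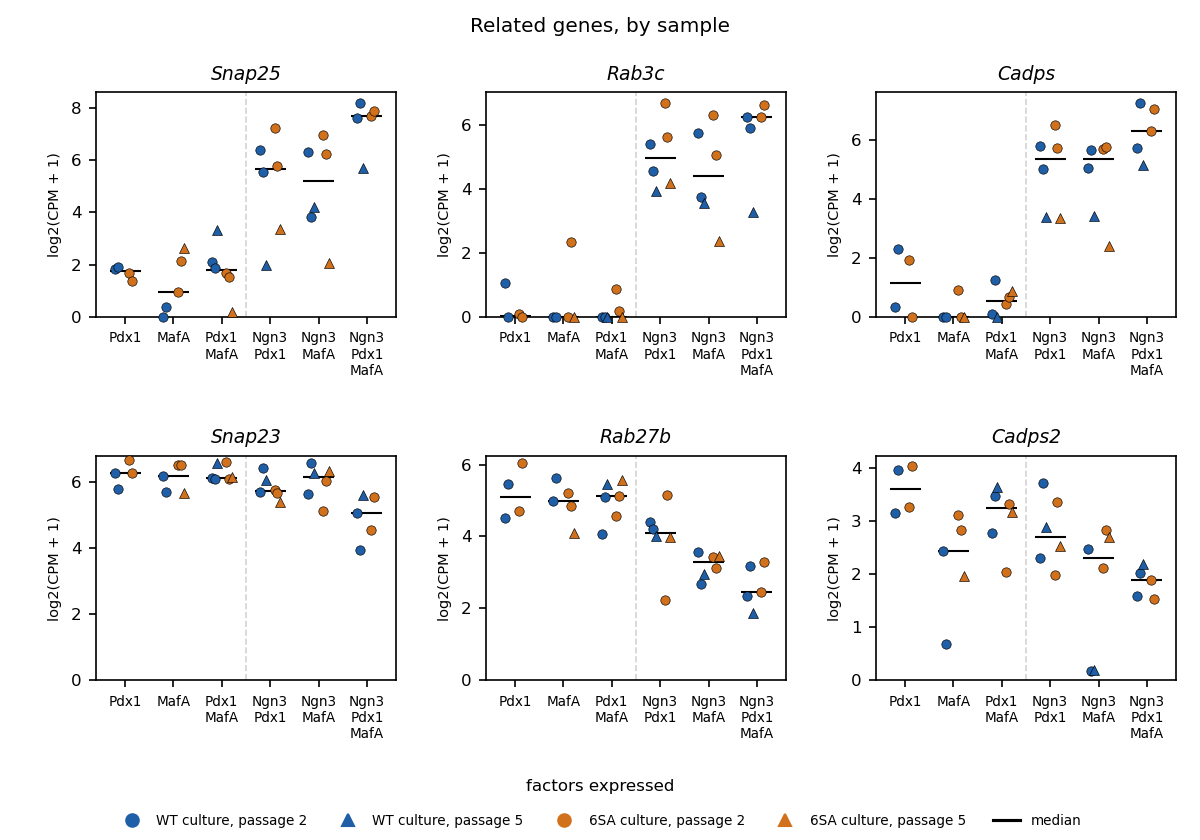
Log2(CPM + 1) of Snap25 and Snap23, Rab3c and Rab27b, and Cadps and Cadps2 in each sample, by combination of factors; circles are passage 2 and triangles passage 5, blue is WT and orange 6SA, and lines are medians. Rab3c and Cadps separate the samples with Ngn3 from those without, and Snap23, Rab27b and Cadps2 overlap between them.

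**Figure D4:**
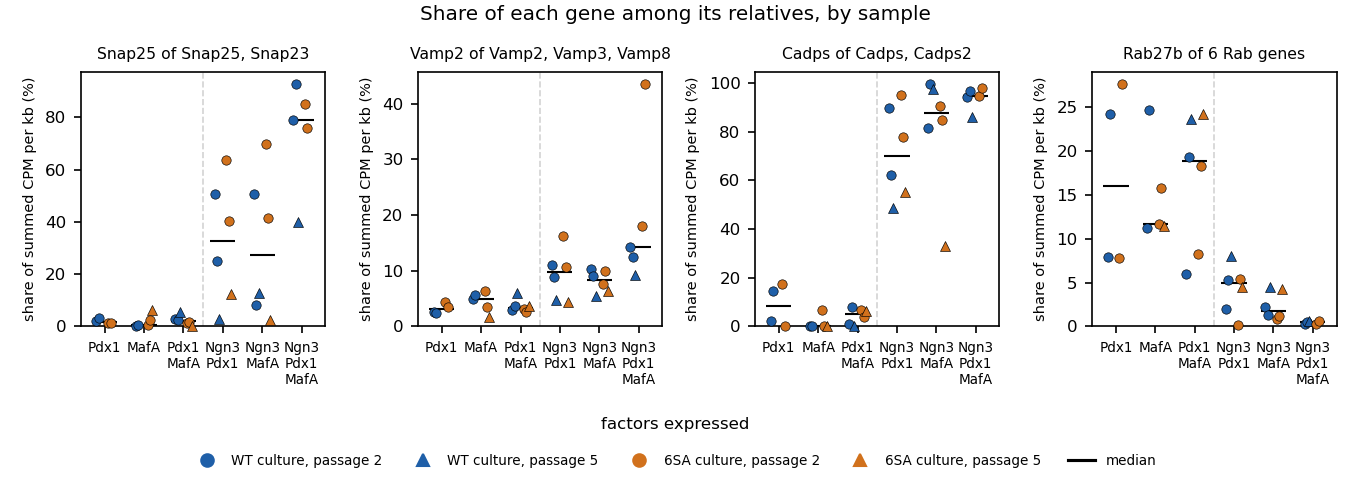
Share (%) of a gene in the summed CPM per kb of its related genes, per sample and combination of factors, for Snap25, Vamp2, Cadps and Rab27b; circles are passage 2, triangles passage 5, blue WT and orange 6SA, and lines are medians. Snap25 reaches 92.7% and Cadps 99.6% with Ngn3, and the highest Vamp2 sample is at 43.6%.

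Within roles, the order of levels per kb changed for some members and not for others. Among the sensors, the median level of Syt13 went from 2.87 CPM per kb without Ngn3, second to Syt11 at 3.35, to 83.6 with Ngn3 and 256 with all 3 factors, first in both. Syt11 at 34.1 and Syt5 at 21.7 CPM per kb were next in cells with all 3 factors. Vamp8 stayed first among the SNAREs and partners at 69.5, 53.0 and 87.4 CPM per kb, and Stxbp2 second at 61.5, 51.7 and 56.6, with overlapping samples. Rab3d stayed first among the Rabs at 9.16, 27.9 and 76.4 CPM per kb, followed by Rab3a at 6.94, 17.9 and 67.0, with Rab27b moving from rank 3 at 3.09 to last at 0.829 and 0.426. Among effectors Rph3al moved from rank 3 at 2.38 to first at 21.9 and 45.5 CPM per kb.

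The change with Ngn3 was then taken beside each of the other factors, in samples that differed in the Ngn3 colour. Beside Pdx1, with 6 samples against 4, 10 members were higher and 0 lower, where 1.32% of all genes were higher and 0.171% lower (1.49% in all). The 10 were Syt7, Rab3c, Rab3b, Cplx2, Rph3al, Snap25, Stxbp5l, Cadps, Syt5 and Vamp2. Syt7 had 2112 counts with Ngn3 and 3 without, a ratio of 482 (95% exact counting interval 165 to 2341, edgeR adjusted p 0.000369). Snap25 was at 82.8, 45.2 and 2.95 CPM in the WT replicates 1, 2 and 3 and at 149, 53.1 and 9.23 CPM in the 6SA ones with Ngn3, against 2.52, 2.80, 2.24 and 1.58 CPM with Pdx1 alone. All 6 were above all 4, but replicate 3 of the WT culture was above them by little (log2 4.62, SE 1.01, edgeR adjusted p 0.012). Replicate numbers paired the samples here, and with the number as a block 18 members were higher and 0 lower. Without replicate 2 none passed.

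Beside MafA, with 6 samples against 5, 11 members were higher and 1 lower, where 2.5% of all genes were higher and 2.17% lower (4.67% in all). The lowest adjusted p were those of Cadps, Syt7, Snap25, Cplx2, Rab3c and Syt5. Cadps was at 32.3, 50.0 and 9.83 CPM in WT replicates 1 to 3 and at 51.0, 53.8 and 4.28 CPM in 6SA replicates 1 to 3, against 0 in 4 of the samples with MafA alone and 0.865 CPM in 6SA replicate 1. All 6 were higher (log2 8.82, SE 1.504, edgeR adjusted p 0.000511). Syt13 (log2 5.46, edgeR adjusted p 0.00492), Sytl4 (3.59, 0.0241 by the same test), Stxbp5l, Rph3al and Syt4 were also higher. Syt4 reached the detection limit only through libraries with Ngn3, so its call is a description. That call was lost with DESeq2, without the legacy setting, with the first technical repeat and without replicate 1. Rab27b was at 10.9, 5.35 and 6.81 CPM in the WT and 9.71, 7.79 and 9.93 CPM in the 6SA samples with Ngn3, against 30.6 and 48.1 CPM (WT) and 35.9, 28.0 and 16.1 CPM (6SA) with MafA alone. Every sample with Ngn3 was below every sample without (log2 -1.95, SE 0.45, edgeR adjusted p 0.00825). With the replicate number as a block, which paired these samples too, 21 members were higher and 1 lower. Without the 2 samples that stood apart, 8 were higher and 2 lower, and Stxbp5l, Syt4 and Sytl4 no longer passed. Leaving out replicate 2 left 2 calls.

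Beside Pdx1 and MafA together the change with Ngn3 reached most of the members. Of the 46 tested, 28 were higher and 3 lower in the 5 samples with all 3 factors than in the 6 with Pdx1 and MafA, where 9.42% of all genes were higher and 8.4% lower. In 22 members all samples with Ngn3 were above all without, which held for 5.66% of all genes, and in the 3 lower members all were below, which held for 5.42%. The median log2 fold change of the members was 3.03 (2.79 with genes at 0 at their bound) against 0.049 for all genes. In the same comparison 10 of 10 pan-endocrine and 9 of 9 tested neuron markers were higher and 7 of 10 duct markers lower, where beside Pdx1 it was 10, 5 and 1 and beside MafA 10, 7 and 4, and their part in the members' changes was not tested. Vamp2 had the lowest adjusted p. It was at 109, 63.5 and 42.4 CPM in the WT replicates 1 to 3 and 134 and 186 CPM in the 6SA replicates with all 3 factors, against 13.6, 17.4 and 32.03 CPM (WT) and 9.95, 13.2 and 21.9 CPM (6SA) without Ngn3. The groups did not overlap (log2 2.59, SE 0.31, edgeR adjusted p 1.49e-06).

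The next 5 members by adjusted p were Syt7 (log2 7.04), Rab3c (9.80), Cadps (7.54), Cplx2 (6.24) and Snap25 (6.17), with edgeR adjusted p between 1.27e-05 and 2.72e-05. Cplx2 was at 255, 160, 74.3, 239 and 184 CPM with Ngn3 (WT replicates first) and at 0.120 to 6.48 CPM without. Rab3a (log2 2.95, SE 0.44), Rab3b (627 counts against 3, ratio 229, 95% exact counting interval 78.0 to 1113), Rab3d (2.83, SE 0.64) and Rab27a (3.70, SE 0.81) were all higher, as were Syt13 (6.55, SE 1.10), Syt14 (2.09, SE 0.37) and Syt11 (3.09, SE 0.56). Some members passed here and not beside Pdx1 or MafA, although those differences were not tested: Syt9, at least 19.8-fold higher, Syt16, at least 4.73-fold, Cplx1, at least 9.67-fold, and Rims1, at least 2.72-fold, all against 3 counts per sample. These 4 reached the detection limit only through libraries with Ngn3, so their calls and folds are a description. Syt4, also called here, reached the limit in the same way, and its call is a description too. With DESeq2 Rims1, Syt16 and Syt9 were not called, and without replicate 1 Rims1 and Syt16 were not. Unc13c, a Munc13 of neurons, was higher by log2 3.69 (SE 1.13, edgeR adjusted p 0.0228), with overlapping samples. The Unc13c call was lost when replicate 1 or replicate 2 was left out.

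The 3 lower members were Snap23, Vamp3 and Rab27b. Snap23 was at 32.5, 14.3, 48.1, 22.5 and 46.3 CPM in cells with all 3 factors (WT replicates first) and at 67.6 to 96.3 CPM without Ngn3 (log2 -1.24, SE 0.31, edgeR adjusted p 0.0065). The Snap23 call was lost when replicate 1 or replicate 2 was left out. Vamp3 was at 79.2 to 90.5 CPM against 115 to 169 CPM (log2 -0.68, SE 0.21, edgeR adjusted p 0.0227). The Vamp3 call was lost with RLE size factors, library totals, no gene filter, only the conditions compared and the first technical repeat. It was also lost when any replicate number was left out. Rab27b was at 2.66 to 8.86 CPM against 15.8 to 46.3 CPM (log2 -2.50, SE 0.49, edgeR adjusted p 0.000657). Without replicate 2, 11 members were higher and 1 lower.

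To ask what MafA or Pdx1 added where Ngn3 was already present, cells with all 3 factors were set against those with Ngn3 and either partner. These 2 comparisons share the 5 samples with all 3 factors, so their results are not independent. Adding MafA to Ngn3 and Pdx1 raised 3 members and lowered 0, where 0.525% of all genes were higher and 1.35% lower. Adding Pdx1 to Ngn3 and MafA raised 3 and lowered 0, where 1.17% of all genes were higher and 1.56% lower. At an unadjusted p under 0.05 there were 15 and 18 of the 46 members, against 3668 and 4488 of the 24004 genes tested. The medians of the members were log2 0.76 and 1.15, against -0.01 and 0.03 for all genes.

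Vamp2 and Rab3a passed in both. Vamp2 was at 37.5, 33.7 and 21.8 CPM (WT) and 46.8, 40.7 and 25.8 CPM (6SA) with Ngn3 and Pdx1, and at 33.2, 31.04 and 19.2 CPM (WT) and 31.5, 34.5 and 28.3 CPM (6SA) with Ngn3 and MafA, beside the 42.4 to 186 CPM given for all 3 factors. The WT replicate 3 with all 3 factors, at 42.4 CPM, lay below the highest sample with Ngn3 and Pdx1 and above all samples with Ngn3 and MafA. Its log2 fold change was 1.64 with MafA added (SE 0.30, edgeR adjusted p 0.00323) and 1.85 with Pdx1 added (SE 0.30, edgeR adjusted p 0.00138).

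Rab3a was at 149, 166, 40.8, 189 and 60.3 CPM with all 3 factors (WT replicates first). It was at 39.9, 21.9 and 11.3 CPM (WT) and 83.5, 38.6 and 26.1 CPM (6SA) with Ngn3 and Pdx1, and at 13.6, 25.04 and 11.9 CPM (WT) and 47.8, 41.1 and 16.4 CPM (6SA) with Ngn3 and MafA. In 3 samples with all 3 factors the level was above every sample with Ngn3 and 1 partner, and the lowest, WT replicate 3, overlapped both of these groups (log2 1.80 with MafA added, SE 0.42, edgeR adjusted p 0.0206, and 2.32 with Pdx1 added, SE 0.43, edgeR adjusted p 0.00397).

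Unc13c passed with MafA added and Syt17 with Pdx1 added. Unc13c was at 13.0, 9.51, 0.133, 18.0 and 17.1 CPM with all 3 factors against 0 to 4.76 CPM with Ngn3 and Pdx1 (log2 5.05, SE 1.25, edgeR adjusted p 0.0303). The WT replicate 3 of passage 5 was the only sample with all 3 factors inside the range of the others. Syt17 was at 19.04, 13.3, 7.71, 39.3 and 37.7 CPM with all 3 factors and at 0 to 5.45 CPM with Ngn3 and MafA, without overlap (log2 3.46, SE 0.87, edgeR adjusted p 0.0296). Duct markers fell in these comparisons as well, 5 of 10 with MafA added and 2 of 10 with Pdx1 added, 1 neuron marker rose in each, and their part was not tested. The numbers of members called depended on the fit. With the replicate block, where numbers paired the samples of the Pdx1 comparison, 9 were higher and 1 lower with Pdx1 added, and without replicate 2 none passed in either. Rab3a and Unc13c lost their call with MafA added when only the conditions compared were fitted, Unc13c also with the first technical repeat and without replicate 1, and Syt17 lost its call with Pdx1 added without replicate 1.

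**Figure D5:**
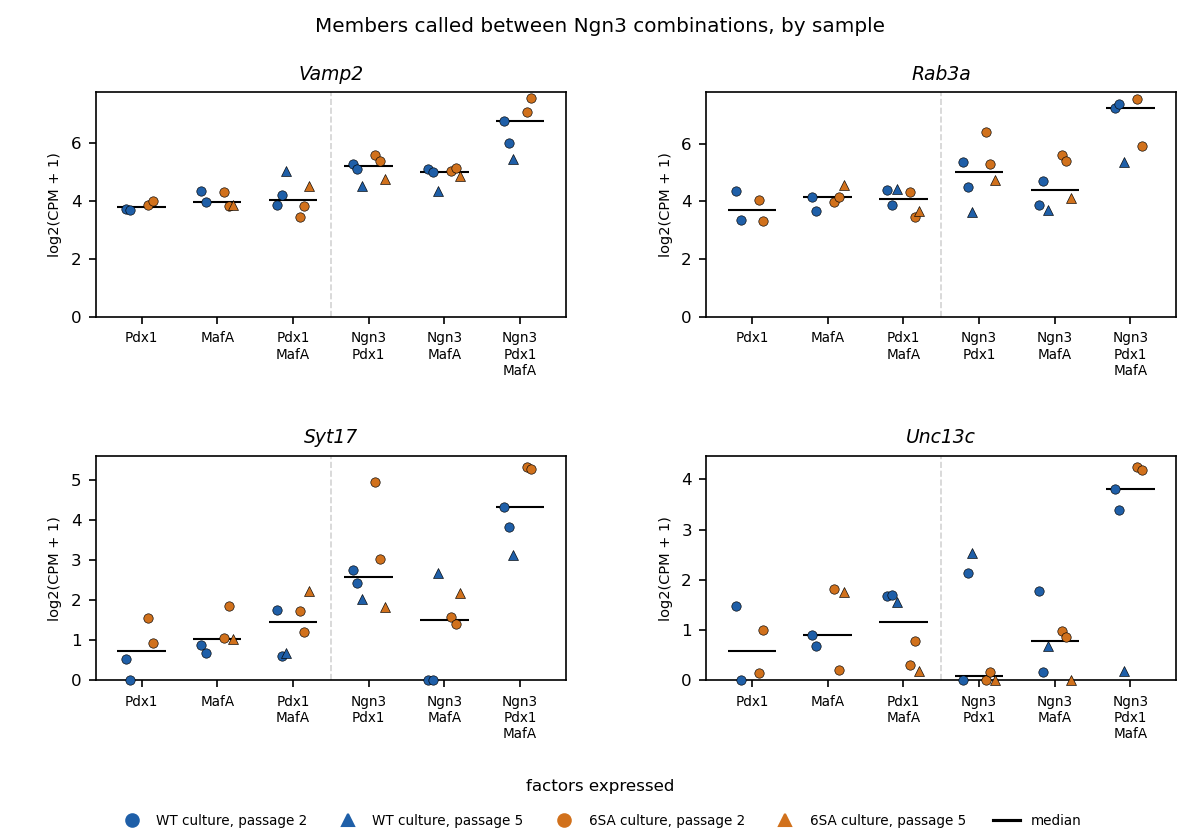
Log2(CPM + 1) of Vamp2, Rab3a, Syt17 and Unc13c in each sample, by combination of factors (circles passage 2, triangles passage 5, blue WT, orange 6SA, lines are medians). The median with all 3 factors is the highest in each panel, and replicate 3 of the WT culture is the lowest of those 5 samples, at 42.4 CPM of Vamp2 and 0.133 CPM of Unc13c.

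Cells with Ngn3 and Pdx1 did not differ detectably from cells with Ngn3 and MafA in any member. No member passed by edgeR or DESeq2, where 0.0875% of all genes were higher and 0.0458% lower by edgeR. At an unadjusted edgeR p under 0.05 there were 7 members and 2065 of the 24004 genes tested. No member passed between Pdx1 and MafA cells without Ngn3 either (0% of all genes in each direction, 0 members by DESeq2). Here the unadjusted p was under 0.05 for 4 members and 675 of the 24004 genes tested. The effect of Ngn3 beside Pdx1 and beside MafA was compared directly by an interaction term, and no member passed (0% of all genes, 0 members by DESeq2). For this term 3 members and 820 of the 24004 genes tested had an unadjusted p under 0.05. Calls found beside 1 partner only are therefore not shown to differ between partners.

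The same question was asked of the phospho-mutant. In cells with Ngn3, 8 samples from 6SA and 9 from WT cultures, no member passed by edgeR or DESeq2 (0% of all genes by edgeR, lowest edgeR adjusted p 0.809). An unadjusted edgeR p under 0.05 was found for 1421 of the 24004 genes tested and for 7 members. Those 7, all higher in 6SA cells, were Syt4, Syt9, Doc2b, Vamp2, Rab3a, Sytl4 and Rims2. Rims2 was at 18.9, 46.4 and 75.6 CPM (lowest, median and highest) in 6SA and 12.1, 28.0 and 39.4 CPM in WT cells, log2 0.84 (SE 0.36, edgeR adjusted p 0.809). Sytl4 was at 3.18, 18.2 and 42.4 against 0.820, 5.75 and 23.0 CPM, log2 1.48 (SE 0.64, edgeR adjusted p 0.809). The samples overlapped in all 7. The fitted values of 40 of the 46 members were above 0, with a median of log2 0.62 against 0.078 for all genes, which is a description with no test. Without Ngn3, 0 members differed between the 2 kinds of culture by edgeR (0% of all genes, 0 members by DESeq2). The unadjusted p was under 0.05 for 1 member and 591 of the 24004 genes tested. By the interaction term, 0 members differed in the effect of Ngn3 (0% of all genes, 0 members by DESeq2). The unadjusted p of this term was under 0.05 for 0 members and 647 of the genes tested.

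Samples of a condition varied widely, and replicate 3, the passage 5 culture, was low in most. Of the 26 members higher with Ngn3, 19 to 23 had their lowest value in replicate 3 in each of the 5 conditions with Ngn3 that had 3 samples. The same count was not made over all genes, so whether it is particular to these members is not known. Snap25 with all 3 factors in WT cells was at 194, 289 and 50.5 CPM in replicates 1, 2 and 3, and with Ngn3 and MafA in 6SA cells at 123, 73.3 and 3.21 CPM. Neurog3 was at 196, 167 and 14.6 CPM and at 133, 62.6 and 24.9 CPM in the same samples. In 6SA cells with Ngn3 and Pdx1, where 23 members were lowest in replicate 3, Neurog3 was at 226.5, 34.9 and 38.8 CPM and so not lowest there. No condition had more than 1 culture of passage 5, so passage and culture cannot be told apart. The WT and 6SA Pdx1 cells, WT MafA cells and 6SA cells with all 3 factors had no such sample analysed. Groups compared could therefore differ in their share of passage 5 samples.

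A wider set of 60 genes of vesicle release, transport and the active zone was set beside the members, of which 59 were found and 56 tested. With Ngn3, 18 were higher (32.1%, against 11.1% of all genes) and 6 lower (10.7%, near the 10.5% of all genes), with a median log2 fold change of 0.26. Active zone and vesicle genes that were higher included Pclo (log2 4.72, edgeR adjusted p 3.21e-09), Syp (8.54, edgeR adjusted p 1.18e-08), Syn1 (5.90), Syn2 (8.56) and Bsn (7.99). Rimbp2, which links Rims to calcium channels, was at 1.53, 37.6 and 57.2 CPM against at most 0.0766 CPM (edgeR adjusted p 3.39e-09). Syt8, a synaptotagmin of epithelia that lies outside the 47, was lower in every sample, at 0, 6.89 and 27.7 CPM with Ngn3 against 28.99, 40.8 and 75.4 CPM without (log2 -4.45, edgeR adjusted p 1.67e-08). In this set 8 were higher and 0 lower beside Pdx1 (1.32% and 0.171% of all genes), 8 and 1 beside MafA (2.5% and 2.17%), and 16 and 7 beside both (9.42% and 8.4%).

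Library preparation did not keep strand, so reads of overlapping genes cannot be told apart. Exons of 10 members overlap those of another gene. Among them, Doc2a overlaps Ino80e by 1103 bases, Syt4 overlaps Gm26658 by 566 bases, Unc13a overlaps Colgalt1 by 495 bases, Syt7 overlaps Gm26859 by 384 bases and Rab3b overlaps 8030443G20Rik by 317 bases. Values of these members are uncertain to that extent.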

How the data were processed

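Pools of 50 sorted cells were sequenced as 61 libraries. The authors aligned single-end reads to mm10 with GSNAP, assigned them to genes with HTSeq (0.5.3p3) and deposited raw counts per gene and library, and whether counting used strand is not given in the sources used here. Unassigned summary rows (33.9 to 67.3% of reads) and 92 spike-ins were left out of totals. Libraries with under 25% spike-in counts, over 1000000 gene counts and over 10000 detected genes were kept, and technical repeats were summed per sample. Genes detected in at least 5 libraries with variance of log2(CPM + 1) over 0.001 were tested.

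Levels are CPM, counts divided by the TMM-scaled library total and multiplied by 1000000. One edgeR 4.0.16 quasi-likelihood model (R 4.3.3, trended dispersion, legacy setting) of all 12 conditions gave contrasts of condition means, with Benjamini-Hochberg adjustment over 24004 genes and a threshold of 0.05. It was tested on simulated counts. DESeq2 1.42.0, other scalings and filters, the replicate block, other sets of libraries and left-out replicates were alternatives. Folds against groups at 0 used 3 counts per sample, and ratios with 1 to 3 counts in the reference have exact intervals, both for counting error only.

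Lengths, symbols and exons are from GENCODE M21 (GRCm38) and promoters from RefSeq. All members are named, and of the wider set the 8 with the lowest adjusted p, 1 of which is not reported here. The members and lists were chosen with earlier results of these data known. Replicate numbers and passages are from the labels, which do not say whether replicates came from separate animals, so p-values measure the spread between these samples. Over the most expressed genes, deviations of same-numbered samples correlated above 0.1 in every pair for Ngn3 beside Pdx1 (0.519 to 0.756, 4 pairs), Ngn3 beside MafA (0.234 to 0.441, 5 pairs), Pdx1 added (0.137 to 0.445, 5 pairs), Ngn3 with Pdx1 against Ngn3 with MafA (0.159 to 0.627, 6 pairs), Pdx1 against MafA (0.432 to 0.785, 4 pairs) and 6SA against WT without Ngn3 (0.225 to 0.791, 7 pairs), and there the numbers were taken to pair the samples.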

Additional observations from a re-analysis of the deposited data

Results flagged for a closer look

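The 3 libraries left out for low counts were all from cells with all 3 factors, and they held signal of the members above the level of cells without Ngn3. In technical repeat 1 of the WT replicate 2 (625650 counts), 25 of the 26 members called higher with Ngn3 were above every sample without Ngn3. In technical repeat 2 of the 6SA replicate 2 (241563 counts) it was 20 of 26, and in technical repeat 1 of the 6SA replicate 3 (408733 counts) 17 of 26. These 26 were selected as higher with Ngn3 in the same data, and the libraries of replicate 2 repeat samples already analysed. The share of all genes was not computed, so the counts are a description. Snap25 was at 79.9, 66.2 and 34.3 CPM in these libraries, Syt13 at 877.5, 907 and 440.4 CPM and Rab27b at 1.60, 16.6 and 4.89 CPM, where 3 counts stood for 4.80, 12.4 and 7.34 CPM. The Rab27b values were therefore near or under what 3 counts show in each library. For members such as Syt7, at most 0.486 CPM without Ngn3, even 3 counts in these libraries lie above every sample without Ngn3.

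Unc13d, a Munc13 of leukocytes and epithelia, passed in no comparison, and its sample differences with Ngn3 had opposite signs beside the 2 partners. Same-numbered samples differed by a mean of 0.708 in log2(CPM + 1) beside Pdx1, higher in 4 of 4 pairs, and by -1.325 beside MafA, lower in 5 of 5 pairs. The edgeR interaction term, fitted over all samples, was log2 2.70 (SE 1.46), with an adjusted p of 1. At 0 to 16.7 CPM with Ngn3 and 0.286 to 10.8 CPM without, Unc13d had few counts in several samples.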

How the results depend on the processing

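Numbers of members called, given here as higher and lower together, kept within 1.5 times of those reported under RLE size factors, library totals, filterByExpr and the first technical repeat in all comparisons. The 28 calls of Ngn3 against no Ngn3 were 18 to 26 with a replicate number left out, fewest without replicate 2, when Cplx1, Cplx3, Doc2b, Rab3d, Snap23, Stx1a, Syt14, Sytl1, Sytl5 and Unc13a lost their call. The 10 beside Pdx1 became 17 with no gene filter and 0 to 17 with a replicate left out. The 12 beside MafA became 20 with no filter, 19 with DESeq2 and 2 to 16 with a replicate left out. The 31 beside both became 12 to 31 with a replicate left out, fewest without replicate 2, and were 32 without the 2 samples that stood apart. The 3 with MafA added became 11 with no filter, 5 with DESeq2, 8 without the legacy setting, 1 with only the conditions compared and 0 to 11 with a replicate left out. The 3 with Pdx1 added became 14, 8, 11 and 7 in the same order, 6 with all libraries and 0 to 6 with a replicate left out. Leaving out a replicate also removes samples, and the cause of the other shifts was not tested.

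With the replicate block, the calls were 18 beside Pdx1, 22 beside MafA and 10 with Pdx1 added, where numbers paired the samples. Where same-numbered samples did not all deviate together, they were 31 over all combinations (12 of 14 pairs above 0.1), 34 beside both and 7 with MafA added (3 of 5 pairs above 0.1 in each), and the block changed no count in the other comparisons.

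Of the comparisons with 0 calls, Ngn3 with Pdx1 against Ngn3 with MafA gave 2 with no gene filter, 0 to 1 with a replicate left out and 1 without the 2 samples that stood apart, a choice made after seeing the data. Pdx1 against MafA, the interaction of Ngn3 with the partner and 6SA against WT in Ngn3 cells gave 1 each with no filter. Of single members, 3 that were not called changed sign: Stxbp2 to 0.116 with library totals and between -0.330 and 0.118 with a replicate left out, Vamp8 to -0.0598 with the block and between -0.187 and 0.182 with a replicate left out, and Unc13b to -0.0024 with a single Ngn3 term in the model (added after seeing the data) and between -0.0363 and 0.0644 with a replicate left out. With 2 or 3 samples a condition and 3 counts at 0.136 to 1.01 CPM, small differences in rare transcripts were not detectable.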
